A study of Mus musculus with 2 samples.

Results

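Ifitm1, Ifitm2, Ifitm3 and Ifitm6, members of the interferon-induced transmembrane (IFITM) family, were described across the cell types of 2 single-cell RNA-seq libraries of neutrophil-enriched mouse blood. They were taken by gene symbol, as 4 of the 32285 genes in the count tables, from the Ifitm cluster of chromosome 7. The first library was made from wild-type (WT) C57BL/6J mice and the other from APP/PS1 transgenic mice, which carry mutant human amyloid precursor protein and presenilin transgenes and deposit amyloid in the brain. Each library pooled blood from 3 female mice at 7 months of age, no mouse was treated, and neutrophils were enriched by immunomagnetic negative selection. With 1 library per genotype the spread between mice is unknown, so no test was made, and all intervals are exact 95% intervals that cover counting error only. Genotype could not be checked from the counts, in which transgene and mouse transcripts are not distinguished.

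IFITM proteins are small membrane proteins that block the fusion of enveloped viruses with the cell. IFITM1 sits mainly at the cell surface, whereas IFITM2 and IFITM3 cycle through endosomes and lysosomes, and interferons raise the transcription of several family members. IFITM3 is also known to bind γ-secretase, the protease that releases amyloid-β from its precursor.

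After filtering, 14564 WT and 15208 APP/PS1 cells were kept. Clusters were named from marker genes, which gave 7586 WT and 9592 APP/PS1 neutrophil-like cells, 2492 and 1787 classical monocyte-like cells, 2938 and 1943 nonclassical monocyte-like cells, and smaller groups of NK, T, B, plasma, basophil and erythroid-like cells, called below by the cell type alone. Many other leukocytes were thus present in both libraries. Median depth in neutrophils was 2553 UMIs (unique molecular identifiers, each standing for 1 captured RNA molecule) per cell in WT and 2703 in APP/PS1. Levels are given in CPM, the proportion of a gene among all UMIs summed over the cells of a type, scaled so that 10000 CPM is 1% of the UMIs. All 4 members had at least 100 UMIs over both libraries in every type except basophils and plasma cells, where Ifitm6 stayed below that number.

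The coordinates of the members are those of mm10 in GENCODE M21. Ifitm2 lies on the minus strand of chromosome 7 from 140954837 to 140955987, Ifitm1 on the plus strand from 140967221 to 140969825, Ifitm3 on the minus strand from 141009586 to 141010770, and Ifitm6 on the minus strand from 141015699 to 141017924. The sequences in front of the RefSeq starts are shown because the members differed in how far they followed interferon-response genes. Each runs 5′ to 3′ on the gene's strand, was taken from the RefSeq promoter table of GRCm38.p6 (250 bases before to 50 bases after the start) and ends where the next GENCODE exon begins. For Ifitm2 and Ifitm3 that is the start of the annotated gene. For Ifitm1 and Ifitm6 it is the start of a shorter transcript inside the gene, and the stretch lies in the first intron of longer ones, whose own starts were not searched. Capitals mark a match to GAAA, any 2 bases and GAAA again, the core of the interferon-stimulated response element, or to TTCNNNGAA, the core of the gamma-activated site. Both strands were searched.
Ifitm1, chr7:140967826-140968027, plus strand: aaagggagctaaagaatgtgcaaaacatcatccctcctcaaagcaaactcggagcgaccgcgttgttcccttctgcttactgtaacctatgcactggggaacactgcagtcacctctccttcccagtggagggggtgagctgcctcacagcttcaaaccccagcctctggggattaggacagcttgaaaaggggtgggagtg
Ifitm2, chr7:140955988-140956211, minus strand: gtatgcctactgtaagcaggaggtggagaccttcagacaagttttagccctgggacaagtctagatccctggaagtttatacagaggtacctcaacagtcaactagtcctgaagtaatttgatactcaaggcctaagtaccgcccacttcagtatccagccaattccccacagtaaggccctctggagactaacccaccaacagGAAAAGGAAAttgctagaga
Ifitm3, chr7:141010771-141010994, minus strand: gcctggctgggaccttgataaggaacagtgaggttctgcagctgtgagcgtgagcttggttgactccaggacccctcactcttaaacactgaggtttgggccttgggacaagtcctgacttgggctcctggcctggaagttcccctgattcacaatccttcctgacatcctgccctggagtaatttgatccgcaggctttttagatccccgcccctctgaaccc
Ifitm6, chr7:141016909-141017142, minus strand: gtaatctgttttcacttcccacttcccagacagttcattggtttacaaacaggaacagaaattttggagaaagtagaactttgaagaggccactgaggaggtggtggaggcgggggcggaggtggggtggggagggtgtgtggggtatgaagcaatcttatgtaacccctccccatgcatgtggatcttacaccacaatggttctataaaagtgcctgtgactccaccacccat

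In the whole window, the response-element core occurred 2 times for Ifitm3, 1 time for Ifitm2 and 0 times for Ifitm1 and Ifitm6, against 3.44% of all 32851 promoter windows with a match. The Ifitm3 matches lie just after the RefSeq start, at chr7:141010716-141010742 on the minus strand, in the stretch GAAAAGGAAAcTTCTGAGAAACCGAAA, where they flank and overlap the gene's only TTCNNNGAA match. TTCNNNGAA was held by 8.30% of all windows, and Ifitm6 had 1 match, TTCCTTGAA at chr7:141016894-141016902, whereas Ifitm1 and Ifitm2 had none. These are matches of letters in a short window and describe no binding, and because the windows of Ifitm1 and Ifitm6 lie inside the annotated genes, their matches are not compared with those of Ifitm2 and Ifitm3.

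Ifitm1, Ifitm2 and Ifitm3 are closer to each other in sequence than any of them is to Ifitm6. Identity of the coding sequences was 82.1% between Ifitm1 and Ifitm2, 82.7% between Ifitm1 and Ifitm3 and 81.4% between Ifitm2 and Ifitm3, and between 64.6% and 68.8% for Ifitm6 against the other members. Of all 50-base windows of the annotated transcripts, 1.42% of Ifitm1, 3.30% of Ifitm2, 5.56% of Ifitm3 and 0% of Ifitm6 were also found in another gene of the count tables. With all GENCODE transcripts as the reference these shares were 5.02%, 48.5% and 10.0% for Ifitm1, Ifitm2 and Ifitm3, for Ifitm2 mostly through Gm45717, a transcript that overlaps it on the same strand. Gm45717 was not among the counted genes and overlaps Ifitm2 in place, so the 48.5% is not a share of Ifitm2 reads that were lost. Reads shared with a gene elsewhere may not have been counted. Counts of Ifitm1, Ifitm2 and Ifitm3 are uncertain by an amount that was not measured.

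The members differed in their order of cell types, and for each the top of the order was a myeloid type. Ifitm1 was highest in basophils, at 5222 CPM (4995 to 5457) in WT and 5817 CPM (5501 to 6146) in APP/PS1. Neutrophils followed at 3460.4 CPM (3436 to 3485) in WT and 1957 CPM (1941 to 1973) in APP/PS1. Both monocyte types were far lower, with 280.2 and 135 CPM in classical and 491 and 315 CPM in nonclassical monocytes in WT and APP/PS1.

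Ifitm2 was highest in neutrophils, at 4408 CPM (4380.3 to 4436) in WT and 3523 CPM (3502 to 3545) in APP/PS1. Classical monocytes had 1655 and 1412 CPM and nonclassical monocytes 1573 and 1363 CPM in WT and APP/PS1. In WT the interval of basophils (1509.6 to 1769 CPM) overlapped those of both monocyte types, so basophils could not be placed against them beyond counting error.

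Ifitm3 was higher in both monocyte types than in neutrophils. Classical monocytes led with 4468 CPM (4439 to 4497) in WT and 4907 CPM (4869.8 to 4944) in APP/PS1. Nonclassical monocytes had 2769.8 and 2928 CPM, and neutrophils 1799.8 and 1761 CPM. Almost every classical monocyte held a UMI of Ifitm3, 99.8% in WT and 99.9% in APP/PS1.

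Ifitm6 was highest in classical monocytes as well, with 681 CPM (669.8 to 692) in WT and 637 CPM (623 to 650.1) in APP/PS1. It had 458 and 452 CPM in nonclassical monocytes and 436 and 337 CPM in neutrophils. The WT intervals of nonclassical monocytes (447 to 469) and neutrophils (428 to 445) did not overlap, and neither did those of APP/PS1.

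**Figure D1:**
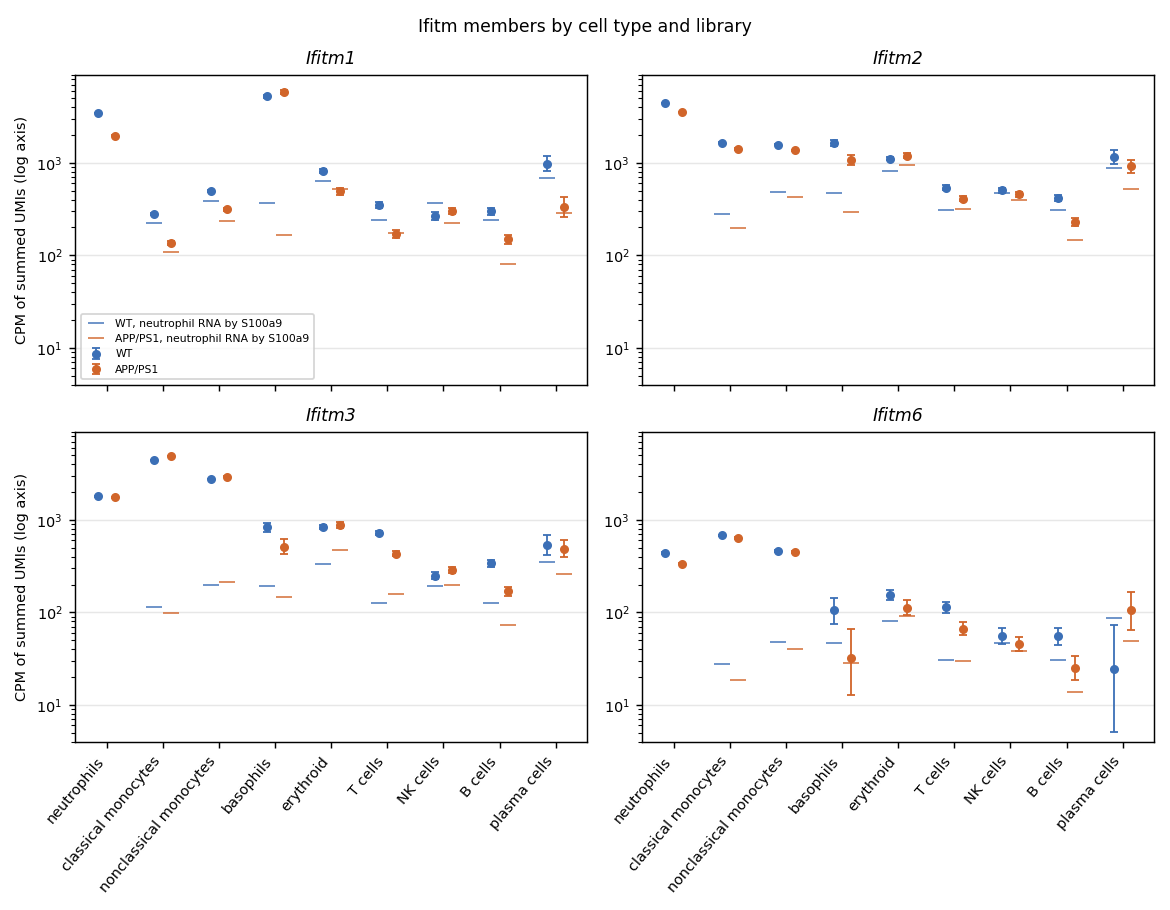
CPM of the 4 members (log axis) in 9 cell types, with WT in blue and APP/PS1 in orange; circles are the values with exact 95% intervals, and short horizontal bars give the CPM that neutrophil RNA, scaled to the S100a9 level of that type, would bring. Ifitm1 stands highest in basophils, Ifitm2 in neutrophils, and Ifitm3 and Ifitm6 in classical monocytes, while circles of lymphocytes lie near the bars for Ifitm1 and Ifitm2.

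Levels in lymphocytes were set against S100a9, an abundant neutrophil transcript that these cells should lack and that still had between 3367 and 10060 CPM in NK, T and B cells. Were all S100a9 in a type neutrophil RNA, with the composition of the neutrophils of the same library, it would bring 244 CPM of Ifitm1 into WT B cells and 80.5 CPM into APP/PS1 B cells. The measured Ifitm1 levels there were 299 and 148 CPM, or 1.23 and 1.84 times as high. In NK cells the measured level was 0.73 times the scaled one in WT and 1.36 times in APP/PS1, and in T cells 1.47 and 0.98 times. For Ifitm2 the same quotient lay between 1.08 and 1.76 over the 3 lymphocyte types and both libraries.

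In other types the quotient was large. It reached 14.0 and 35.3 for Ifitm1 in basophils of WT and APP/PS1, 38.9 and 50.3 for Ifitm3 in classical monocytes, 13.9 and 13.8 for Ifitm3 in nonclassical monocytes, and 24.4 and 34.1 for Ifitm6 in classical monocytes. For Ifitm1 in classical monocytes it was only 1.27 and 1.25, and in nonclassical monocytes 1.28 and 1.33. T cells of WT had 718 CPM of Ifitm3, 5.75 times the scaled level, but the T-cell cluster also carried 1044 CPM of the 7 monocyte markers summed, against 781 CPM in B cells and 452 CPM in NK cells of WT. The part of neutrophil and monocyte RNA in the lymphocyte values was not tested.

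Shares of cells with a UMI followed the same lines. In neutrophils, 83.0% (82.2 to 83.9) of WT and 70.9% (70.0 to 71.8) of APP/PS1 cells had a UMI of Ifitm1. In B cells, with median depths of 5004.5 and 5875 UMIs, the shares were 35.2% and 23.1%, and shares near these were read as background. With every cell thinned to 1000 UMIs the shares were 70.8% and 54.1% in neutrophils and 13.2% and 6.19% in B cells. Ifitm2 was found in 99.4% of neutrophils in WT and 98.1% in APP/PS1, and Ifitm3 in 92.8% and 92.9%. Ifitm6 was found in 44.3% and 36.5% of neutrophils but in 96.0% and 94.5% of classical monocytes.

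Ifitm1 and Ifitm6 were uneven among neutrophils. The median neutrophil had 2259 CPM of Ifitm1 in WT and 777 CPM in APP/PS1, with a 10th percentile of 0 in both libraries and 90th percentiles of 8914 and 5939 CPM. For Ifitm2 the median was 4115 CPM in WT and 3235 in APP/PS1, with 10th percentiles of 1534 and 970.2 CPM. For Ifitm6 the median was 0 in both libraries, with 90th percentiles of 983 and 762 CPM. The lower Ifitm1 sum in APP/PS1 was thus seen at the median and at the upper end of the cells, and was proportionally larger at the median.

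Between the libraries, neutrophils had less Ifitm1, Ifitm2 and Ifitm6 in APP/PS1, while Ifitm3 was nearly level. From 75390 UMIs in WT and 57700 in APP/PS1, the log2 ratio (APP/PS1 over WT) of Ifitm1 was -0.82 (-0.84 to -0.81). It was -0.32 (-0.34 to -0.31) for Ifitm2, -0.37 (-0.41 to -0.33) for Ifitm6 and -0.031 (-0.050 to -0.012) for Ifitm3. A gene was called different where its log2 ratio was beyond 0.5 in size, among genes with at least 100 UMIs over both libraries. By that rule, over all neutrophils summed, Ifitm1 was the 1 member called lower and none was called higher. Ifitm6 was beyond the limit within some of the neutrophil clusters described below, with intervals that reached inside it. Of the 8307 neutrophil genes, 3.60% were called lower and 4.94% higher. The median log2 ratio of all neutrophil genes was 0.05, and 75 of them, Ifitm1 included, were as low as Ifitm1 or lower. S100a9 itself had a log2 ratio of -0.21 in neutrophils.

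In classical monocytes Ifitm1 had a log2 ratio of -1.05 (-1.13 to -0.98) and was the only member called lower, beside 2.97% of genes called lower and 2.16% called higher. It was close to the level that neutrophil RNA would bring in both libraries, and S100a9 had a log2 ratio of -0.42 in the same cells. With cells called doublets removed, the ratio of Ifitm1 was -0.49 (-0.58 to -0.39), inside the limit. That of S100a9 was 0.44 (0.43 to 0.46) in the same setting. Ifitm3, the leading member in these cells, had 0.14 (0.12 to 0.15), Ifitm2 -0.23 (-0.25 to -0.20) and Ifitm6 -0.10 (-0.14 to -0.06). In nonclassical monocytes Ifitm1 again was the only member called lower, at -0.64 (-0.70 to -0.58) beside 2.72% of genes called lower and 2.09% called higher. It was -0.77 there with doublets removed, and -0.49 with cells thinned to 1000 UMIs. Ifitm3 had 0.080 (0.058 to 0.10), Ifitm2 -0.21 (-0.24 to -0.17) and Ifitm6 -0.02 (-0.07 to 0.04).

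**Figure D2:**
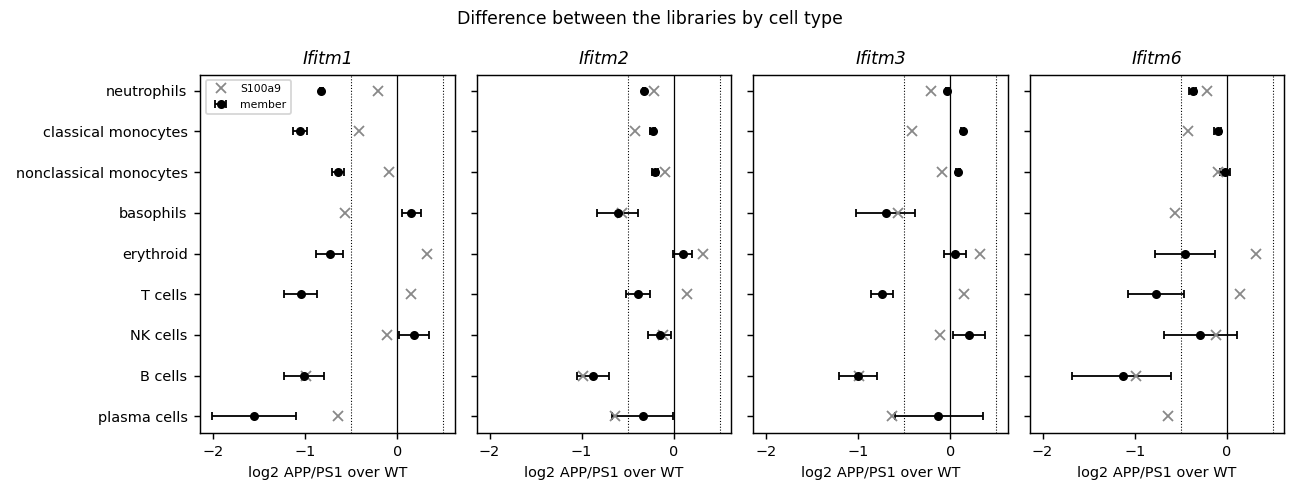
Log2 ratio of APP/PS1 over WT for each member by cell type, shown where a member had at least 100 UMIs over both libraries; black circles carry exact 95% intervals, grey crosses give S100a9 in the same cells, and dotted lines mark 0.5 in either direction. Ifitm1 lies left of the lower line in neutrophils and both monocyte types but right of 0 in basophils and NK cells, and in B cells all 4 members lie near the cross of S100a9.

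Basophils, where Ifitm1 was highest, did not have the lower Ifitm1 of neutrophils. Their log2 ratio was 0.16 (0.05 to 0.26) with 73 WT and 43 APP/PS1 cells, and -0.048 (-0.16 to 0.06) with doublets removed. Ifitm2 and Ifitm3 in basophils had log2 ratios of -0.61 and -0.70, so that 2 of 3 members tested were called lower beside 8.50% of genes, with S100a9 at -0.56. With doublets removed the ratio of Ifitm3 was 0.24 (-0.14 to 0.62), from 448 CPM in WT and 529.8 in APP/PS1, and it was inside the limit under 3 other alternatives.

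Many of the differences in lymphocytes changed in size or sign with the removal of doublets. S100a9 is set beside them as a description only. Its ratio is not the one that neutrophil RNA would give for Ifitm1, because in neutrophils Ifitm1 had -0.82 and S100a9 -0.21. All 4 members were called lower in B cells, with log2 ratios from -1.13 to -0.88 beside 6.26% of genes called lower, and S100a9 there had -0.99. With doublets removed the B-cell ratios were -0.66 for Ifitm1, -0.28 for Ifitm2, -0.62 for Ifitm3 and -0.91 for Ifitm6, so that Ifitm2 was no longer called, and S100a9 had -0.58. Without percentile limits on cells Ifitm2, Ifitm3 and Ifitm6 (-0.42, -0.061 and -0.084) were inside the limit in B cells, as was Ifitm6 (-0.38) in thinned cells. In T cells 3 of 4 members were called lower (Ifitm1 -1.05, Ifitm3 -0.74, Ifitm6 -0.77) beside 4.35% of genes, with S100a9 at 0.15. With doublets removed the T-cell ratios were -0.11, -0.15 and -0.44, none of them beyond the limit, and that of Ifitm2 was 0.59. Ifitm3 and Ifitm6 were also inside it in T cells with percentiles over both libraries (-0.21 and -0.24) or no percentile limits (-0.26 and -0.17), and Ifitm2 was beyond it in thinned cells (-0.60). With doublets removed, the T-cell level of Ifitm3 was 189 CPM in WT and 170.1 in APP/PS1. No member was called lower in NK cells, where 2.09% of genes were. With doublets removed the ratios of Ifitm1 (0.18) and Ifitm3 (0.21) there turned to -0.33 (-0.59 to -0.06) and -0.23 (-0.48 to 0.02), and Ifitm6 had -0.64.

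Ifitm1 was the 1 member called lower in erythroid cells, at -0.73 (-0.88 to -0.58) beside 3.76% of genes, with S100a9 at 0.32. Its erythroid level was 1.27 times the level scaled by S100a9 in WT and 0.94 times in APP/PS1, and in plasma cells 1.44 and 1.17 times. The part of neutrophil RNA in these values was not tested. In erythroid cells the ratio of Ifitm1 depended on the processing. It was inside the limit with doublets removed, at -0.26 (-0.49 to -0.03), as a mean over cells (-0.36) and in thinned cells (-0.40). It was also the only one called lower of the 3 tested in plasma cells, at -1.55 (-2.01 to -1.10) from 119 and 63 UMIs, beside 13.4% of 305 genes and with S100a9 at -0.64. With doublets removed it had -0.43 (-1.27 to 0.43) from 23 and 29 UMIs, inside the limit and with an interval that held 0. The plasma cells numbered 42 in WT and 74 in APP/PS1.

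Neutrophils were clustered again with the members and genes that differed between the libraries left out of the features, which gave 7 clusters. Ifitm3 stood out in cluster 4 and the other members in cluster 5. In cluster 4, led by the interferon-response genes Ifit3, Ifit1 and Ifit2 (607 WT and 915 APP/PS1 cells), Ifitm3 had 3207 CPM (3118 to 3297) in WT and 3159 CPM (3091 to 3229) in APP/PS1. The other neutrophils had 1692 and 1626 CPM, so that the cluster was 1.90 times higher in WT and 1.94 times in APP/PS1. Ifitm1 and Ifitm2 were not higher in this cluster, with quotients of 0.996 and 0.935 for Ifitm1 and 0.999 and 0.959 for Ifitm2 in WT and APP/PS1. For Ifitm6 they were 0.97 and 0.79.

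In cluster 5, led by Camp, Ngp and Ltf, which encode proteins of specific granules made in immature neutrophils (161 WT and 221 APP/PS1 cells), Ifitm6 had 3046 CPM (2930.1 to 3166) in WT and 2725 CPM (2638 to 2813) in APP/PS1. Other neutrophils had 330.4 and 219 CPM, a 9.22-fold and 12.4-fold difference. Ifitm1 and Ifitm2 went the other way. Ifitm1 had 771 CPM in WT and 325 in APP/PS1 in the cluster, 4.63 and 6.27 times below the other neutrophils, and Ifitm2 had 2027 and 1153 CPM, 2.22 and 3.16 times below. Ifitm3 was 1.17 and 1.08 times as high in the cluster. In cluster 1, led by Clec4n and Dusp2, Ifitm6 was lowest, with 191 CPM in WT and 154 in APP/PS1, 2.52 and 2.53 times below all other neutrophils, cluster 5 included. The immature neutrophils were few, and their high Ifitm6 held without integration of the libraries, where the log2 difference was 3.51 in WT and 3.75 in APP/PS1.

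The lower Ifitm1 of APP/PS1 neutrophils was seen in each of the 7 clusters, with log2 ratios from -1.25 in cluster 5 to -0.66 in cluster 6, which was led by mitochondrial genes. Ifitm2 was lower in each as well, from -0.81 in cluster 5 to -0.24 in cluster 1. Ifitm3 had ratios between -0.14 and 0.14. Ifitm6 was lower in APP/PS1 in all 7, from -0.64 in cluster 4 to -0.16 in cluster 5, although the interval of cluster 6 (-1.01 to 0.03) held 0. It was beyond the limit of 0.5 in clusters 0, 2, 3 and 4 (-0.57, -0.54, -0.504 and -0.64), each with an interval that reached inside the limit. Over all neutrophils 3.60% of genes were called lower, and no such share was counted within single clusters. In clusters 1, 5 and 6 it was inside the limit (-0.30, -0.16 and -0.49). Cluster 5 held 2592 of the 9509 Ifitm6 UMIs of WT neutrophils and 3788 of the 9946 of APP/PS1. Cluster 2, led by the platelet genes Alox12 and Itga2b, had -0.69 for Ifitm1 and did not stand apart from the clusters without platelet genes. The extremes of cluster 5 depended on integration. Without it, the cluster led by Camp, Ngp and Ltf held 89 WT and 178 APP/PS1 cells, with 402 and 273 CPM of Ifitm1. Its ratios were then -0.56 (-0.80 to -0.31) for Ifitm1 and -0.49 (-0.62 to -0.36) for Ifitm2.

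**Figure D3:**
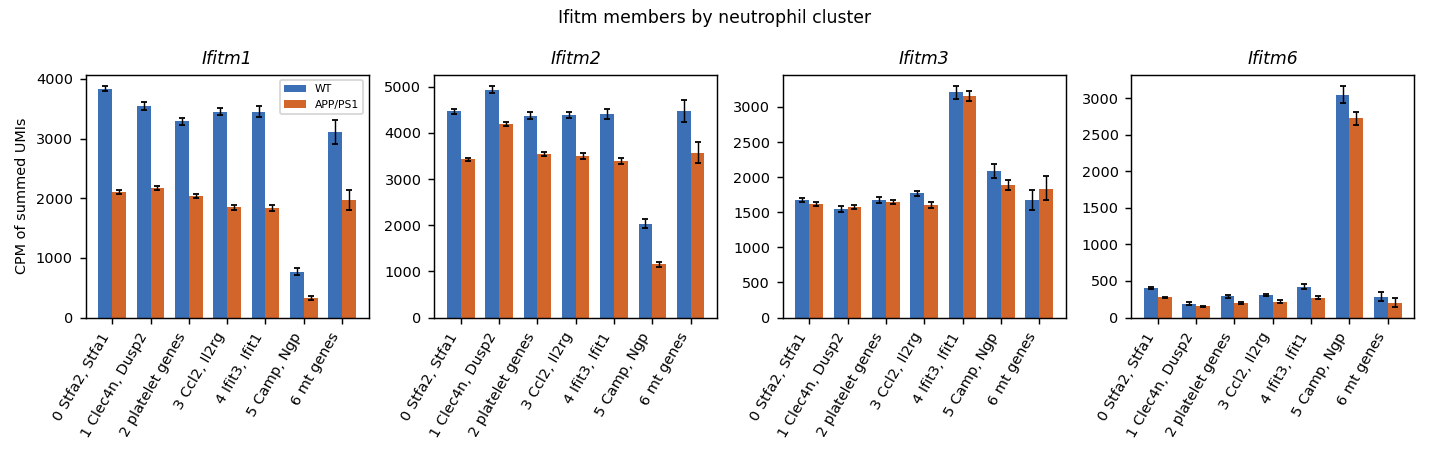
CPM of each member in the 7 neutrophil clusters, with WT in blue and APP/PS1 in orange and error bars for exact 95% intervals; clusters are named by number and leading genes. Ifitm3 is highest in cluster 4, Ifitm6 in cluster 5, and in cluster 5 Ifitm1 and Ifitm2 are at their lowest, while the blue bar of Ifitm1 is taller than the orange one in every cluster.

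Ifitm3 was also higher in cells with more interferon-response UMIs when cells were divided into 4 bins by their UMIs of 42 interferon-response genes, counted after thinning to 1000 UMIs. In neutrophils Ifitm3 went from 1378 CPM in the lowest bin (0 to 4 list UMIs) to 2522 CPM in the highest (12 to 93) in WT, and from 1261 CPM to 2574 CPM in APP/PS1. Both libraries gave an increase at each step. Ifitm1 had 3375 and 3304 CPM in the lowest and the highest WT bin and 2041 and 1869 CPM in those of APP/PS1, and Ifitm2 4379 and 4392 CPM in WT and 3396 and 3585 CPM in APP/PS1. Ifitm6 went the other way over the lower bins and then stayed level. From lowest to highest bin it had 574, 401, 347 and 351 CPM in WT. In APP/PS1 it had 545, 300, 234 and 237 CPM. S100a9 went from 104089 to 80510 CPM in WT and from 95858 to 68480 CPM in APP/PS1 over the same bins. The part of the immature cells of cluster 5, which are high in Ifitm6, in that decline was not tested.

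In classical monocytes Ifitm3 went from 4179 to 4875 CPM in WT and from 4444 to 5607 CPM in APP/PS1 over the 4 bins. In nonclassical monocytes it differed little, with 2625 and 2884 CPM in WT. There Ifitm1 had 231 CPM in the lowest and 980.1 CPM in the highest WT bin, but S100a9 went from 4846 to 20183 CPM over the same bins, and its part in that increase was not tested. Across thinned neutrophils, Pearson's r between Ifitm3 and the interferon list was 0.33 in WT and 0.34 in APP/PS1. It lay between -0.04 and 0.11 for all pairs among the 4 members and for the other 3 members with the list, in both libraries. These are descriptions across cells that share a library and are sparse in counts.

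**Figure D4:**
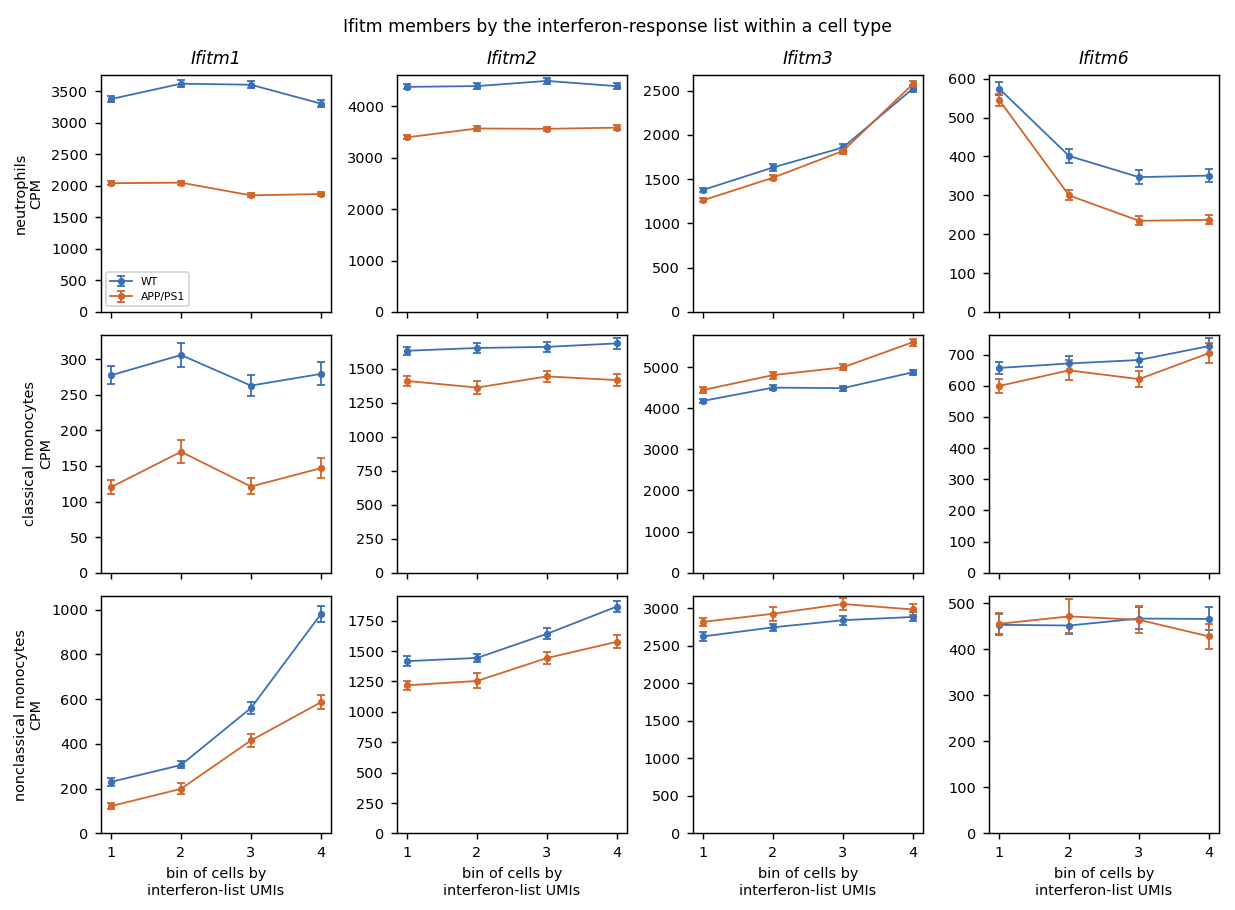
CPM of each member (vertical axis from 0) in 4 bins of cells by UMIs of the interferon-response list, for neutrophils, classical and nonclassical monocytes, with WT in blue, APP/PS1 in orange and exact 95% intervals. Ifitm3 climbs over the bins in neutrophils of both libraries, and there the WT and APP/PS1 curves of Ifitm1 stay apart at every bin. Ifitm6 declines over the lower bins in neutrophils and is level over the upper ones.

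The interferon-response genes as a list went against Ifitm1 in neutrophils. Of 41 genes tested, 10 were called higher in APP/PS1 and 0 lower, beside 4.94% and 3.60% of all neutrophil genes. Their median log2 ratio was 0.28 beside 0.05 for all genes. The most abundant were Ifi27l2a (log2 ratio 0.22), Slfn1 (0.37) and Slfn4 (0.11). The highest ratios were those of Ifit3b (0.84) and Ifit3 (0.73), and the lowest those of Oas1g (-0.26) and Zbp1 (-0.04). In classical monocytes 5 of 42 were called higher and 1 lower, beside 2.16% and 2.97% of all genes there, with a median of 0.17.

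Receptors and signalling genes of the interferon pathway were close to level. Of 12 tested in neutrophils, 1 was called higher, beside 4.94% of all neutrophil genes. This was Ifngr2, a chain of the receptor for interferon-γ, at 0.51 (0.44 to 0.58). Its partner chain Ifngr1 had -0.31 (-0.37 to -0.24), the lowest ratio of the list, and Irf8 had -0.16. The kinase Jak1 had -0.0030, the phosphatase Ptpn6 -0.07, and the feedback inhibitors Socs3 and Socs1 0.16 and 0.28. The median of the list was 0.04.

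Among 13 tested genes for proteins that modify or accompany IFITM proteins, 1 was called higher in neutrophils, beside 4.94% of all neutrophil genes. This was Nedd4, a ubiquitin ligase of IFITM3, at 0.61 (0.26 to 0.98) from 97 and 201 UMIs. The tetraspanins Cd9 and Cd81, membrane partners of IFITM proteins, had 0.21 and 0.45, the proton pump subunits Atp6v0c and Atp6v0b 0.06 and -0.0038, the palmitoyltransferase Zdhhc5 -0.03 and the ligase Nedd4l -0.17.

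With the members left out, most tested genes of the region did not have the lower level of Ifitm1. Of 36 such genes within 300 kb of the members, 11 had enough UMIs in neutrophils, and their median log2 ratio was 0.07. The 1 called lower, beside 3.60% of all neutrophil genes, was another family member, Ifitm5, at -1.09 (-1.41 to -0.77). It had only 9.82 CPM in WT and 4.61 in APP/PS1. Among the Ifitm genes, Ifitm2 lies between Ifitm5 and Ifitm1. Of the members beside Ifitm1, Ifitm2 (-0.32) and Ifitm6 (-0.37) were also lower in neutrophils, while Ifitm3 (-0.031) was nearly level. Whether these genes share a cause was not tested. Irf7, a transcription factor of the interferon response in the same region, had 0.33 (0.26 to 0.40), Bet1l 0.37, Ric8a 0.07 and Psmd13 -0.06.

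Across 7 cell types and 2 libraries (14 points of log2(CPM + 1), which share libraries and cells), the pattern of Ifitm3 was close to that of Ifitm6, with Pearson's r of 0.99, while Ifitm1 had an r of 0.75 with Ifitm2 and of 0.26 with Ifitm3. Among 8907 genes, the 3 most like Ifitm1 were Il1r2 (0.98), G0s2 (0.98) and Cpne2 (0.98). Those most like Ifitm2 were Gda, Mcemp1 and Rasgrp4 (all 0.99). For Ifitm3 they were Sap30 (0.99), Tnfrsf21 (0.99) and Gpr141 (0.98), and for Ifitm6 App (0.99), Klra2 (0.99) and Ltbr (0.98). With a pseudocount of 10 in place of 1, Rasgrp4, Tnfrsf21 and Gpr141 were no longer among the 3 closest genes of their member, while the other 9 were. Of the genes like Ifitm1, Il1r2, a decoy receptor of interleukin-1, had 734 CPM in WT and 464 in APP/PS1 neutrophils, and G0s2 2529.7 and 1699.8 CPM. Both genes were also among the markers used to name neutrophils. Basophils and plasma cells were left out of these patterns because 1 of their libraries held fewer than 50 cells. In basophils, where Ifitm1 was highest, Il1r2 had only 97.3 CPM in WT and 69.0 in APP/PS1, and G0s2 508 and 82.8 CPM. Cpne2 had 89.4 and 82.8 CPM there, beside 122 and 74.0 CPM in neutrophils.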

How the data were processed

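UMI counts were deposited as Cell Ranger 5.0.0 gave them on mm10, unnormalized, for all barcodes called cells (17123 WT, 17645 APP/PS1, with 92458623 and 84870864 UMIs; 83 barcodes occurred in both libraries). Libraries were made with 10x Genomics 3′ v3 chemistry. Kept cells lay between the 5th and 95th percentiles of their library for both genes and UMIs and had at most 10% mitochondrial UMIs. The rest were log-normalized and clustered with Seurat 5.3.0 on 2000 variable features (members excluded), 15 principal components and resolution 0.2. Clusters were named from at least 3 fixed markers. Neutrophils were clustered again after anchor integration at the lowest resolution giving at least 6 clusters. Scrublet (scanpy 1.11.5) doublets were kept, and removed in an alternative. Its automatic threshold of 0.728 for APP/PS1 was replaced by the WT threshold of 0.217, which called 9.04% of WT and 7.29% of APP/PS1 barcodes. Levels have exact Poisson intervals, ratios exact conditional intervals and shares Clopper-Pearson intervals, at the 95% level. No test was possible with 1 library per genotype. The ratio intervals were tested on simulated data. All members are named, and of each list the 3 highest genes by CPM and the 2 highest and 2 lowest by ratio. The members and lists were chosen with earlier results of these data known. The 2 interferon-list genes not matched were not analysed here.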

Additional observations from a re-analysis of the deposited data

Results flagged for a closer look

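The direction of the APP/PS1 to WT difference of 2 members was not the same in all cell types, with counting intervals that did not hold 0 on either side. The difference between cell types was not tested. For Ifitm1 the log2 ratio was above 0 in NK cells (0.18) and basophils (0.16), and below 0 in neutrophils (-0.82), classical monocytes (-1.05), nonclassical monocytes (-0.64), T cells (-1.05), B cells (-1.01), plasma cells (-1.55) and erythroid cells (-0.73). For Ifitm3 it was above 0 in classical monocytes (0.14), nonclassical monocytes (0.080) and NK cells (0.21), and below 0 in neutrophils (-0.031), T cells (-0.74), B cells (-1.002) and basophils (-0.70). In NK cells and basophils, ratios of both members changed sign once called doublets were removed. Of these, only the interval of Ifitm1 in NK cells (-0.59 to -0.06) then did not hold 0. Without them the ratio of Ifitm1 was -0.26 in erythroid cells and -0.43 in plasma cells, where its interval (-1.27 to 0.43) held 0, and -0.11 (-0.36 to 0.15) in T cells, where that of Ifitm3 was -0.15 (-0.39 to 0.09).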

How the results depend on the processing

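In neutrophils all 4 members kept a log2 ratio below 0 under all 9 alternatives. The ratio of Ifitm1 was -0.87 with library sizes by TMM or without abundant gene classes, -0.78 as a mean over cells and -0.77 with thinned cells. Ifitm2 had -0.37, -0.37, -0.29 and -0.28 under the same 4, and -0.34 with no percentile limits. Ifitm6 had -0.42, -0.42, -0.44 and -0.43, and Ifitm3 -0.077 and -0.076 with the 2 library sizes and -0.0059 with thinned cells. The high Ifitm6 of immature neutrophils gave log2 differences of 3.51 in WT and 3.75 in APP/PS1 without integration. The Ifitm3 difference of the interferon cluster was 0.88 and 0.92 with 8 clusters and 0.50 and 0.51 without integration, where the cluster also held more cells, and Ifitm2 there had 0.013 in APP/PS1. Removing called doublets reversed Ifitm1 (-0.33) and Ifitm3 (-0.23) in NK cells, Ifitm2 in T cells (0.59), and Ifitm1 (-0.048) and Ifitm3 (0.24) in basophils. The intervals of Ifitm3 in NK cells (-0.48 to 0.02) and of Ifitm1 (-0.16 to 0.06) and Ifitm3 (-0.14 to 0.62) in basophils then held 0. In NK cells Ifitm3 was also reversed with 30 principal components (-0.41) and thinned cells (-0.044). Ifitm6 was reversed in erythroid cells with no percentile limits (0.021). With percentiles over both libraries the cluster given the plasma-cell name had 458 cells and was led by Gsto1 and epithelial genes such as Krt13 beside Jchain and Igha, so its -0.40 for Ifitm6 is not a value of plasma cells. The causes were not tested. No paired analysis was possible because each genotype has 1 library. Pooled mice, few cells in basophils and plasma cells, and RNA of other cells in small groups limit these values.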

Other observations

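Of the other family members, Ifitm10 had its highest levels in NK cells, with 129 CPM in WT and 123 in APP/PS1, followed by T cells with 49.2 and 88.4 CPM, whereas neutrophils had 1.84 and 1.66 CPM. Its log2 ratio was 0.84 (0.50 to 1.20) in T cells and -0.06 (-0.31 to 0.19) in NK cells. The T-cell clusters also carried the 6 NK markers, at 2964 CPM summed in WT and 3873 in APP/PS1, beside 20262 and 19589 CPM in NK cells. The part of NK-cell RNA in the T-cell value was not tested. Ifitm5, known from bone-forming cells, was at most 9.82 CPM in neutrophils and monocytes. Tmem91 had 1.61 and 2.48 CPM in neutrophils, and Prrt1 0.046 and 0.20 CPM.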
